A study of Homo sapiens with 42 samples.

Results

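The arrays described here measured the RNA of A375 melanoma cells that carried CDT1 siRNA or a control siRNA and received no active drug. They were chosen by their titles: 3 arrays of cells transfected with CDT1 siRNA and given DMSO, and all 6 arrays of cells transfected with GL2 siRNA and given DMSO, so 9 of the 42 arrays of the series. A375 is an established human melanoma line with an activating BRAF mutation. The series as a whole set siRNAs against CDT1, BRCA1 and p53 and the control siRNA GL2 beside treatment with MLN4924, an inhibitor of the NEDD8-activating enzyme, and 2 other drugs. The CDT1 siRNA group carried siRNA against CDT1 for 48 hours before 0.065% DMSO, the drug vehicle, was given for 26 hours to 27000 cells. The GL2 siRNA groups had the same transfection time, vehicle, cell number and DMEM with 10% serum, but carried siRNA against GL2, a firefly luciferase sequence that serves as a control, in place of CDT1 siRNA. All 9 arrays therefore come from transfected, vehicle-treated cells, and no untransfected cells are among them. The GL2 arrays form a first and a second set of 3, the second marked by an added number in its titles; which of them was grown beside the CDT1 siRNA cells is not labelled. The labels give neither the sequence nor the number of siRNAs used against CDT1, and effects of CDT1 loss cannot be told apart from other effects of the siRNA. Nor is it stated that the samples of a group were separate cultures, and the p-values cover no more than the spread among the samples, which may be technical.

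CDT1 is the licensing factor that, with CDC6 and the origin recognition complex ORC, loads the MCM2 to MCM7 helicase onto origins of replication in G1. Licensing is closed in S phase, when geminin binds CDT1 and cullin-RING ubiquitin ligases, which need NEDD8, mark CDT1 for destruction. Cells that enter S phase with too few licensed origins fire fewer origins, and p53 and its target p21 are known to hold normal cells in G1 when licensing is short.

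The targeted gene was measured first. CDT1 had log2 signals of 6.67, 6.51 and 6.77 in CDT1 siRNA cells, against 9.0, 9.16 and 8.70 in the first GL2 set and 8.72, 8.78 and 8.56 in the second. All 3 silenced arrays lay far under all 6 control arrays. The change was -2.17 ± 0.26 on the log2 scale (standard error, limma, adjusted p = 4.8e-07), a 4.5-fold decrease, and both bright probe sets of the gene fell, by -2.17 and -1.79. Levels here are log2 of the deposited signal after each array was shifted so that its median gene had the same level, and they are compared between arrays, not between genes. A gene is said to have risen or fallen where its Benjamini-Hochberg adjusted p was under 0.05 over all 19775 genes and its change was at least 1.5-fold; such a gene is called.

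The promoters of CDT1 and of 2 helicase genes that fell with it are shown because they hold matches to the DNA element read by E2F factors, which control genes of the G1 to S transition. They are RefSeq sequences on GRCh38.p14, from 250 bases before to 50 after the start of the gene, read along the gene. Capitals mark 7-letter matches to TTCCCGC or TTGGCGC on either strand. These elements overlap in none of the promoters shown.
CDT1 promoter, chr16:88803539-88803838, plus strand: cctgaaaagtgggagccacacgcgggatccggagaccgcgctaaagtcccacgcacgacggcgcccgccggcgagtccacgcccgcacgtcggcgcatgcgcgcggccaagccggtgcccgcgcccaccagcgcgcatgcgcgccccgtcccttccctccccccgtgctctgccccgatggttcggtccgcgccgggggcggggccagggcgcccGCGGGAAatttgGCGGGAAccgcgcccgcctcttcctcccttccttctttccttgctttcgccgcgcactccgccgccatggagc
MCM7 promoter, chr7:100101348-100101647, minus strand: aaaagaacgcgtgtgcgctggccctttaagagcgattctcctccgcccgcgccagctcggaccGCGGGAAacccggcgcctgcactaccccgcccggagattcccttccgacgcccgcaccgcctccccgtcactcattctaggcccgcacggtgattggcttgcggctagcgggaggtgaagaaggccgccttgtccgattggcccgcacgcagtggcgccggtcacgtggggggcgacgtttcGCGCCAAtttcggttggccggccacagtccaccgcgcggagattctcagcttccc
MCM8 promoter, chr20:5950402-5950701, plus strand: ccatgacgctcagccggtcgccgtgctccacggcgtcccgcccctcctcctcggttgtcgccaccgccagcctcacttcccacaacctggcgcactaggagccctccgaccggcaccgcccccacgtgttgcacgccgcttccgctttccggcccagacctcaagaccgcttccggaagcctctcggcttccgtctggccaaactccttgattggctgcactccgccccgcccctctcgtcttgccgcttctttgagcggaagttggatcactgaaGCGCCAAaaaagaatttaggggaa
In CDT1 the matches began 35 and 23 bases before the start of the gene, in MCM7 187 and 5 bases before it, and in MCM8 at base 27 after it. A match was present in 8 of 16 licensing genes with a promoter in the table, namely CDT1, CDC6, ORC1, ORC3, MCM3, MCM6, MCM7 and MCM8. Of these, CDC6, ORC1, ORC3, MCM3 and MCM6 were not called. MCM4, a helicase gene that fell, is not among the 8, for want of either a match or a promoter sequence. Whether the element has a part in the falls was not tested. Of all 15384 promoters of measured genes, 12.2% held a match. Of the genes that fell in CDT1 siRNA cells, 13.9% of 560 did, and of those that rose, 9.09% of 440. A match is a description of the letters and not evidence of binding.

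Between CDT1 siRNA and GL2 siRNA cells 1257 genes were called, 6.36% of those tested: 551 rose (2.79%) and 706 fell (3.57%). The balance depended on the scaling: 682 were higher and 623 lower at the deposited scaling, and 659 higher and 645 lower after quantile normalization. Among them 166 rose and 234 fell at least 2-fold. In 1145 of the 1257, the CDT1 siRNA arrays did not overlap the 6 GL2 arrays, which was so for 22.4% of all genes. The calls and the lack of overlap rest on the same arrays, so the latter is no separate support. The median change of all genes was -0.03, and the median standard error was 0.206. The number of arrays limits the precision. A dim gene is one whose lower group averaged less than 31.9 units of signal, which is the median over the table. Dim genes made up 132 of those that rose and 135 of those that fell, and the sizes of their changes depend on background. In these bulk samples, fewer cells in a state and less RNA per cell cannot be told apart.

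The control sets themselves differed. The second GL2 set against the first had 188 genes past the same thresholds, 0.951% of those tested, 70 higher (0.354%) and 118 lower (0.597%). Without median centring 47 were higher and 190 lower. The median absolute log2 difference between arrays was 0.314 to 0.360 for CDT1 siRNA against the first set, 0.321 to 0.376 against the second, and 0.256 to 0.307 between the sets. Within the CDT1 siRNA group it was 0.182 to 0.188. The actin 5' to 3' ratio, a measure of RNA quality, was 0.895 to 0.925 in CDT1 siRNA cells, 0.806 to 0.886 in the first set and 0.900 to 0.934 in the second. Elsewhere in the series 3 libraries were doubted: the third GL2 and the third BRCA1 siRNA library under MLN4924, whose BRCA1 levels went against their labels, and a daunorubicin library with an actin ratio of 0.0118. None is among the 9 arrays, but they enter the shared standard error. Without them 634 genes rose and 826 fell, and every one of the 105 genes checked kept its call. The fits below that leave out 1 of the 9 arrays, or use 1 GL2 set alone, include these libraries. Against each set alone, 274 of the 551 genes that rose (49.7%) and 376 of the 706 that fell (53.3%) also passed. TMEFF2 had 7.89, 8.09 and 7.86 in CDT1 siRNA cells, against 7.52, 7.71 and 8.10 in the first GL2 set and 5.65, 5.61 and 5.35 in the second. Its change of 1.29 ± 0.36 (limma, adjusted p = 0.0147) came from the second set, against which it was 2.41, while it was 0.17 against the first. Without CDT1 siRNA array 2 its adjusted p was 0.0773.

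Of the 18 licensing genes, 4 fell, CDT1 itself among them, and 1 passed as higher. Of all genes 3.57% fell and 2.79% rose. The median change over the licensing list was -0.38, against -0.03 over all genes. Of the 18 changes 14 were negative, as were 10582 of 19775 over all genes. Besides CDT1 the genes that fell were MCM4 and MCM7, subunits of the replicative helicase, and MCM8, a helicase of recombination. MCM4 had 10.25, 10.10 and 10.33 in CDT1 siRNA cells, against 10.74, 10.72 and 10.84 in the first GL2 set and 10.91, 11.18 and 11.13 in the second. MCM7 had 9.80, 9.74 and 10.00 in CDT1 siRNA cells, against 10.55, 10.45 and 10.44 in the first set and 10.76, 10.91 and 10.73 in the second. MCM8 had 7.68, 7.99 and 7.69 in CDT1 siRNA cells, against 8.49, 8.65 and 8.33 in the first set and 8.82, 8.79 and 8.40 in the second. In all 3 genes every silenced array lay under every control array. MCM4 fell by 0.69 ± 0.16 (limma, adjusted p = 0.003), with all 4 of its bright probe sets lower, but did not pass against the first set alone (-0.54, adjusted p = 0.0621). MCM7 changed by -0.79 ± 0.21 (adjusted p = 0.0123) and MCM8 by -0.79 ± 0.24 (adjusted p = 0.0276). Without the doubted libraries, which enter the shared standard error, MCM7 had an adjusted p of 1.65e-09 and MCM8 of 0.0031 (limma). In the fit with those libraries both calls were lost when single arrays were left out. Without CDT1 siRNA array 1 or 2 the adjusted p of MCM7 was 0.0577 or 0.0719. MCM8 was past 0.05 when any 1 of 5 arrays was left out: 0.117 and 0.108 without CDT1 siRNA arrays 1 and 3, 0.0550 without the first set's array 2, and 0.0532 and 0.0537 without the second set's arrays 1 and 2.

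The other helicase subunits had smaller differences in the same direction. MCM5 had 8.22, 8.22 and 8.32 in CDT1 siRNA cells, against 8.79, 8.91 and 8.78 in the first GL2 set and 8.74, 8.82 and 8.85 in the second. Its difference of -0.57 ± 0.15 had an adjusted p of 0.00917 (limma) but was 1.48-fold, just under the fold required, and it passed without CDT1 siRNA array 3 (-0.60, adjusted p = 0.0264). MCM3 was at -0.47 ± 0.14 (adjusted p = 0.0255), also under 1.5-fold. MCM6 was at -0.46 ± 0.16 (adjusted p = 0.0564) and MCM2 at -0.38 ± 0.18 (adjusted p = 0.209), and neither passed. In MCM2, MCM3, MCM5 and MCM6 the silenced arrays all lay under the 6 control arrays. Over the licensing list the arrays did not overlap in 9 genes that were lower and 0 that were higher, against 12.0% lower and 10.4% higher over all genes. MCMBP, which binds MCM subunits, was at -0.37 ± 0.12 (adjusted p = 0.0445).

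Apart from CDT1 itself, none of the loading factors that act before the helicase passed the test. CDC6, which joins ORC to load the helicase, had 9.20, 8.96 and 9.29 in CDT1 siRNA cells, against 9.18, 9.34 and 9.13 in the first GL2 set and 9.69, 9.67 and 9.74 in the second. It overlapped the first set and lay under the second, with a difference of -0.31 ± 0.21 (limma, adjusted p = 0.416). ORC1, the ORC subunit that cycles, was at -0.41 ± 0.19 (adjusted p = 0.195), and ORC2 to ORC6 ranged between -0.25 and 0.10, none passing. GMNN, which encodes geminin, the inhibitor of CDT1, had 10.75, 10.66 and 10.75 in CDT1 siRNA cells, against 10.83, 10.75 and 10.83 in the first set and 10.88, 10.93 and 10.98 in the second. Its difference was -0.15 ± 0.16 (adjusted p = 0.652). The gene counted as higher was MCM9, the partner of MCM8, at 0.95 ± 0.27 (adjusted p = 0.0195). MCM9 had 7.85, 7.72 and 7.76 in CDT1 siRNA cells, against 7.69, 7.73 and 7.58 in the first set and 6.02, 5.88 and 6.07 in the second, so that it was 0.11 against the first set and 1.79 against the second. Only 1 of its 2 bright probe sets was higher, and without CDT1 siRNA array 1, 2 or 3 its adjusted p was 0.0812, 0.0630 or 0.0636. Against the first set alone 0 licensing genes rose and 1 fell, CDT1, where 2.77% of all genes rose and 2.93% fell. Against the second 1 rose and 4 fell, where 3.26% of all genes rose and 4.14% fell.

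**Figure D1:**
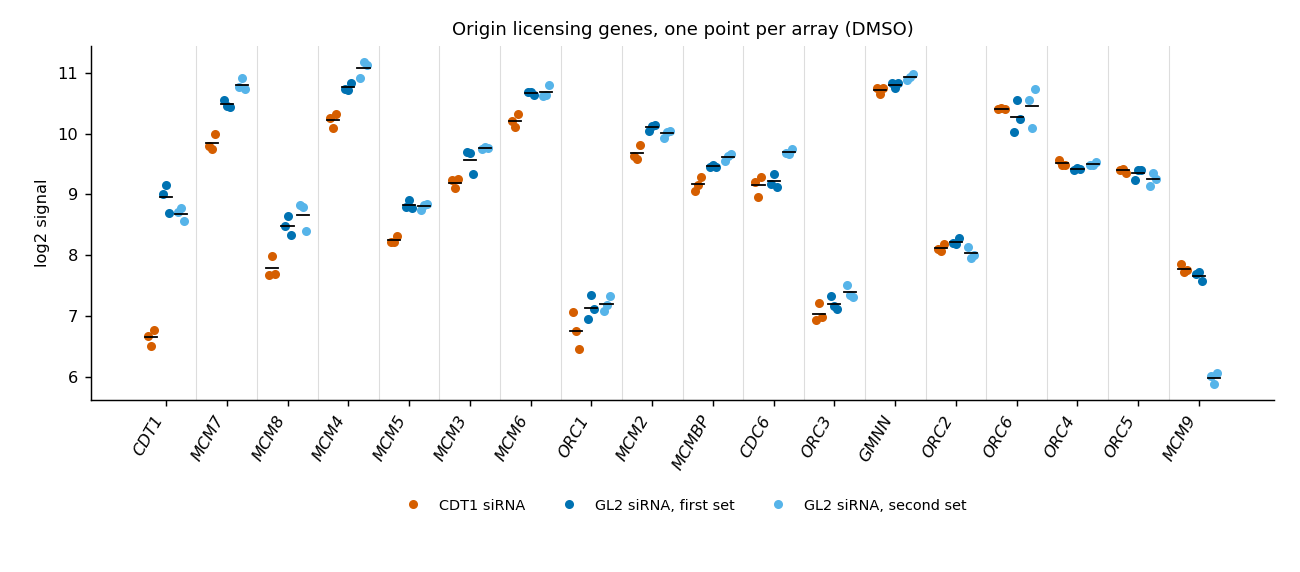
Log2 signal (vertical axis) of the 18 licensing genes on each DMSO array, ordered by change, with CDT1 siRNA left of the first and second GL2 sets; points are arrays and black bars group means. CDT1 and the helicase subunits MCM2 to MCM7 lie lower in all 3 CDT1 siRNA arrays, while MCM9 is low in the second GL2 set; levels of different genes are not compared.

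Of 38 genes of origin firing and the replication fork, 3 fell and 1 rose, where 3.57% and 2.79% of all genes did. The median was -0.30, and 35 of the 38 changes were negative, as were 10582 of 19775 over all genes. GINS1, a subunit of the active helicase, had 9.50, 9.50 and 9.74 in CDT1 siRNA cells, against 10.33, 10.39 and 10.20 in the first GL2 set and 10.72, 10.73 and 10.77 in the second. It fell by 0.95 ± 0.16 (limma, adjusted p = 0.000162), also against each set alone. TIMELESS, which protects stalled forks, had 8.01, 8.03 and 8.04 in CDT1 siRNA cells, against 8.72, 8.63 and 8.70 in the first set and 8.69, 8.59 and 8.84 in the second, a fall of -0.67 ± 0.16 (adjusted p = 0.00504). TOPBP1, which joins firing to ATR signalling, was at -0.59 ± 0.16 (adjusted p = 0.0132), 1.51-fold, and missed the thresholds without CDT1 siRNA array 1 (adjusted p = 0.0675) or 2 (0.0590), without the first set's array 3 (-0.57) without the second set's array 3 (-0.58) or against the first set alone (adjusted p = 0.0528). The 1 gene that rose was RFC5, a subunit of the clamp loader, with 8.95, 8.91 and 9.07 in CDT1 siRNA cells, against 8.38, 8.47 and 8.14 in the first set and 7.49, 7.47 and 7.59 in the second. Its brightest probe set gave 1.06 ± 0.21 (adjusted p = 0.000824), but its bright probe sets ran from -0.34 to 1.06, only 1 of 3 higher, and it did not pass against the first set alone (0.65, adjusted p = 0.0998). Against the second set alone 1 of the 38 rose and 8 fell, and against the first 0 rose and 2 fell.

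Of the 18 checkpoint genes 2 fell, where 3.57% of all genes did. CLSPN, which encodes claspin, the adaptor that lets ATR activate CHK1, had 6.64, 6.68 and 6.45 in CDT1 siRNA cells, against 7.72, 7.61 and 7.49 in the first GL2 set and 7.79, 7.66 and 7.59 in the second. The silenced arrays lay clear of the controls, with a change of -1.06 ± 0.32 (limma, adjusted p = 0.0243), but it missed the threshold without CDT1 siRNA array 1, 2 or 3 (adjusted p = 0.0722, 0.0700 and 0.102) and against the first set alone (0.0816). CDC25B, a phosphatase that activates cyclin-dependent kinases at mitotic entry, had 9.42, 9.43 and 9.50 in CDT1 siRNA cells, against 10.10, 10.28 and 10.55 in the first set and 10.22, 10.43 and 10.36 in the second, a fall of -0.88 ± 0.12 (adjusted p = 5.55e-06). In the list of CDT1 turnover, which holds subunits of the ubiquitin ligases that destroy CDT1, 1 of 15 genes fell. It was DTL, the substrate receptor of that ligase, with 9.05, 9.04 and 9.25 in CDT1 siRNA cells, against 9.84, 9.89 and 9.90 in the first set and 9.92, 10.00 and 9.97 in the second. Its change was -0.81 ± 0.26 (adjusted p = 0.0365), and it missed the threshold in 8 of the 9 fits without 1 array, with an adjusted p of 0.0522 to 0.135, and against either set alone (0.117 and 0.0635). Without the doubted libraries, which enter the shared standard error, DTL was at -0.81 ± 0.12 (limma, adjusted p = 9.69e-06).

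The list of E2F targets and G1 to S regulators had 1 gene higher and 2 lower of 24, with a median of -0.34. Of all genes 2.79% rose and 3.57% fell. CDKN1C, which encodes the cyclin-dependent kinase inhibitor p57, had 7.46, 7.19 and 7.68 in CDT1 siRNA cells, against 9.03, 9.30 and 8.99 in the first GL2 set and 9.81, 9.61 and 9.73 in the second. It fell by 1.97 ± 0.22 (limma, adjusted p = 1.45e-07), 3.92-fold, with all 4 bright probe sets lower. UHRF1, which carries DNA methylation through replication, had 10.14, 10.20 and 10.44 in CDT1 siRNA cells, against 11.03, 11.07 and 11.17 in the first set and 10.79, 10.84 and 10.95 in the second, a fall of -0.72 ± 0.18 (adjusted p = 0.00537) that did not pass against the second set alone (-0.60, adjusted p = 0.0519). The gene that rose was CDKN1A, described with the p53 targets. Of 10 genes of dNTP supply none passed in either direction by limma, and their median was -0.13. Of 21 genes of homologous recombination and the Fanconi pathway 2 fell. BARD1, the partner of BRCA1, had 7.17, 6.91 and 6.90 in CDT1 siRNA cells, against 7.87, 7.84 and 7.96 in the first set and 7.57, 7.65 and 7.66 in the second, a change of -0.77 ± 0.17 (adjusted p = 0.00232). NBN, which encodes the NBS1 subunit of the break sensor, had 9.67, 9.64 and 9.73 in CDT1 siRNA cells, against 10.32, 10.57 and 10.60 in the first set and 10.51, 10.39 and 10.47 in the second, a change of -0.80 ± 0.14 (adjusted p = 0.00013).

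Of 34 measured targets of p53, 6 rose and 0 fell, where 2.79% of all genes rose, and 28 did not pass. Of the 34 changes 27 were positive, as were 9191 of 19775 over all genes, and the median was 0.40, against -0.03 over all genes. In 18 of the 34 the silenced arrays lay above all 6 control arrays, and in 1 under them, which was so for 10.4% and 12.0% of all genes. CDKN1A, which encodes the kinase inhibitor p21, had 10.59, 10.61 and 10.44 in CDT1 siRNA cells, against 9.01, 9.10 and 9.25 in the first GL2 set and 9.25, 9.05 and 9.15 in the second. Every silenced array was more than a log2 unit above every control array, and the change was 1.41 ± 0.15 (limma, adjusted p = 5.83e-08), 2.66-fold. SESN1, a stress-induced inhibitor of mTORC1, had 8.10, 8.34 and 8.10 in CDT1 siRNA cells, against 7.13, 7.14 and 7.23 in the first set and 6.95, 7.12 and 7.06 in the second. It rose by 1.07 ± 0.11 (adjusted p = 1.04e-07). GDF15, a secreted stress cytokine, had 8.14, 8.24 and 7.85 in CDT1 siRNA cells, against 7.21, 7.13 and 7.15 in the first set and 6.87, 7.10 and 6.87 in the second, a rise of 1.02 ± 0.21 (adjusted p = 0.00133).

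The other 3 targets that rose were death and oxidative-stress genes. TNFRSF10B, the death receptor DR5, had 9.70, 9.79 and 9.75 in CDT1 siRNA cells, against 9.07, 9.02 and 9.03 in the first GL2 set and 8.74, 8.64 and 8.76 in the second, a rise of 0.87 ± 0.11 (limma, adjusted p = 2.72e-06). TP53I3, a quinone oxidoreductase, had 9.68, 9.69 and 9.73 in CDT1 siRNA cells, against 8.71, 8.89 and 8.99 in the first set and 9.10, 8.90 and 8.95 in the second, a rise of 0.78 ± 0.10 (adjusted p = 3.35e-06). TP53INP1, a stress-induced cofactor of p53, had 6.51, 6.61 and 6.49 in CDT1 siRNA cells, against 5.80, 6.10 and 5.89 in the first set and 6.01, 5.67 and 5.77 in the second. Its 0.66 ± 0.18 (adjusted p = 0.0118) was the least firm of the 6: without CDT1 siRNA array 2 its adjusted p was 0.0666, against the first set alone it was 0.0632, and the mean of all its probe sets gave -0.48 with an adjusted p of 0.257. MDM2, the ubiquitin ligase that p53 induces against itself, did not pass. It had 10.10, 10.08 and 10.11 in CDT1 siRNA cells, against 9.89, 10.03 and 9.94 in the first set and 10.25, 10.32 and 10.26 in the second, so the silenced arrays lay between the sets. Its difference was -0.02 ± 0.14 (adjusted p = 0.951), and was 0.02 at the deposited scaling. The gene of p53 itself was not analysed here.

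**Figure D2:**
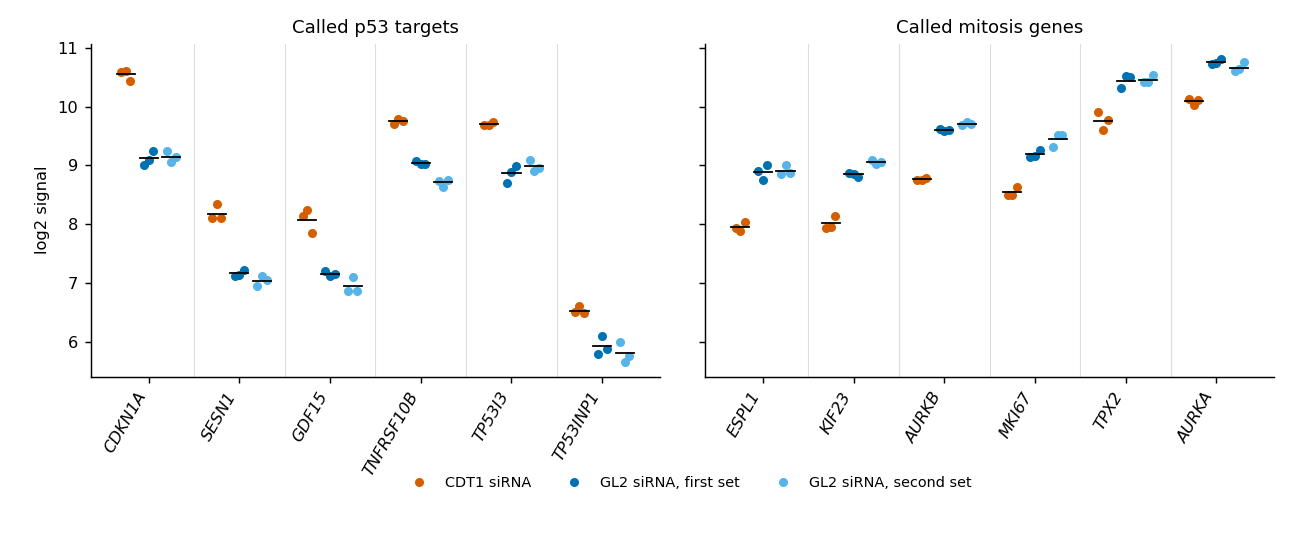
Log2 signal (vertical axis) of the 6 p53 targets that rose (left) and the 6 mitosis genes that fell (right), with the CDT1 siRNA arrays left of the first and second GL2 sets; points are arrays and black bars group means. In all 12 genes the 3 CDT1 siRNA arrays lie apart from the 6 GL2 arrays; levels of different genes are not compared.

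Of 37 measured genes of the mitosis list 6 fell and 0 rose, where 3.57% of all genes fell, and 31 did not pass. All 37 changes were negative, as were 10582 of 19775 over all genes, and the median was -0.43, against -0.03 over all genes. In 26 of the 37 the silenced arrays lay under all 6 control arrays, which was so for 12.0% of all genes. ESPL1, the separase that releases sister chromatids, had 7.94, 7.88 and 8.04 in CDT1 siRNA cells, against 8.90, 8.75 and 9.0 in the first GL2 set and 8.85, 9.01 and 8.88 in the second. It fell by 0.95 ± 0.21 (limma, adjusted p = 0.00196). KIF23, a kinesin of the cytokinetic midzone, had 7.94, 7.96 and 8.15 in CDT1 siRNA cells, against 8.88, 8.86 and 8.80 in the first set and 9.10, 9.02 and 9.05 in the second, a fall of -0.93 ± 0.19 (adjusted p = 0.00101). MKI67, the proliferation marker that coats mitotic chromosomes, had 8.50, 8.50 and 8.63 in CDT1 siRNA cells, against 9.14, 9.16 and 9.26 in the first set and 9.31, 9.52 and 9.51 in the second. It fell by 0.77 ± 0.18 (adjusted p = 0.00332), with all 4 bright probe sets lower.

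The mitotic kinases and their activator made up the rest. AURKB, the kinase of the chromosomal passenger complex, had 8.76, 8.76 and 8.79 in CDT1 siRNA cells, against 9.62, 9.59 and 9.61 in the first GL2 set and 9.68, 9.73 and 9.71 in the second, a change of -0.89 ± 0.25 (limma, adjusted p = 0.0154). AURKA, the spindle pole kinase, had 10.13, 10.02 and 10.11 in CDT1 siRNA cells, against 10.73, 10.74 and 10.81 in the first set and 10.60, 10.63 and 10.75 in the second. It fell by 0.63 ± 0.11 (adjusted p = 0.000203), in 2 of its 3 bright probe sets, and was at -0.58 against the second set alone, under the fold. TPX2, which activates AURKA, was at -0.69 ± 0.21 (adjusted p = 0.024). In the fit of all arrays the calls of AURKB and TPX2 were lost when single silenced arrays were left out, although no array of either group overlapped the other. AURKB had an adjusted p of 0.0591, 0.0625 and 0.0525 without CDT1 siRNA arrays 1, 2 and 3, and TPX2 of 0.132 and 0.0735 without arrays 2 and 3. Against the first set alone AURKB had an adjusted p of 0.0647 and TPX2 of 0.0719, and TPX2 had 0.0551 against the second. The standard error in this fit comes from all 14 groups of the series, the doubted libraries included. Without those libraries AURKB was at -0.89 ± 0.07 (limma, adjusted p = 9.16e-10) and TPX2 at -0.69 ± 0.12 (adjusted p = 6.55e-05).

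Among genes that were not dim, the 10 with the largest falls ranged from -3.30 to -1.89, CDT1 being among them, and all 10 also fell against each GL2 set alone. They were chosen among called genes whose silenced arrays lay under all 6 control arrays, so falling against each set was largely fixed by the choice. COMMD2, a COMM domain protein, had 6.54, 5.68 and 6.31 in CDT1 siRNA cells, against 9.27, 9.62 and 9.68 in the first GL2 set and 9.37, 9.39 and 9.51 in the second. Its fall of -3.30 ± 0.28 (limma, adjusted p = 1.28e-09), 9.83-fold, was larger than that of CDT1 itself. IGFBP4, a secreted protein that binds insulin-like growth factors, had 7.20, 7.14 and 7.40 in CDT1 siRNA cells, against 9.53, 9.44 and 9.64 in the first set and 9.80, 10.14 and 10.15 in the second, a 5.82-fold fall (-2.54 ± 0.17, adjusted p = 1.01e-11). IL11, a cytokine of the interleukin-6 family, had 7.51, 7.66 and 7.55 in CDT1 siRNA cells, against 9.72, 9.78 and 9.89 in the first set and 9.91, 10.35 and 10.28 in the second, a 5.33-fold fall (-2.41 ± 0.20, adjusted p = 4.24e-10).

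SEC23A, a coat protein of vesicles that leave the endoplasmic reticulum, had 8.43, 8.38 and 8.42 in CDT1 siRNA cells, against 10.43, 10.56 and 10.19 in the first GL2 set and 10.54, 10.35 and 10.51 in the second. TFAM, which packages and transcribes mitochondrial DNA, had 8.37, 8.22 and 8.43 in CDT1 siRNA cells, against 10.10, 10.21 and 9.94 in the first set and 10.47, 10.30 and 10.39 in the second. ANP32E, a chaperone of the histone variant H2A.Z, had 9.75, 9.39 and 9.68 in CDT1 siRNA cells, against 11.34, 11.37 and 11.44 in the first set and 11.61, 11.54 and 11.67 in the second. In each of the 3 genes the groups were more than a log2 unit apart and every bright probe set was lower: SEC23A changed by -2.02 ± 0.12 (limma, adjusted p = 9.29e-13), TFAM by -1.90 ± 0.15 (2.48e-10) and ANP32E by -1.89 ± 0.11 (9.29e-13). LAPTM5, a lysosomal membrane protein, had 5.56, 5.54 and 5.20 in CDT1 siRNA cells, against 7.28, 7.27 and 7.40 in the first set and 7.33, 7.5 and 7.35 in the second, a change of -1.92 ± 0.15 (1.25e-10). The other 2 of the 10 were CDKN1C and CCN2.

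The 10 largest increases among genes that were not dim ran from 1.54 to 2.06, and 8 of them also rose against each GL2 set alone. These were likewise chosen with their silenced arrays above all 6 control arrays. H2BC21, a gene of histone H2B, had 7.81, 8.11 and 7.95 in CDT1 siRNA cells, against 6.05, 6.05 and 6.18 in the first GL2 set and 5.69, 5.64 and 5.78 in the second. It rose 4.16-fold (2.06 ± 0.29, limma, adjusted p = 8.29e-06). RNF128, a ubiquitin ligase, had 7.58, 7.96 and 7.90 in CDT1 siRNA cells, against 5.85, 5.63 and 5.34 in the first set and 6.25, 6.34 and 6.12 in the second, a 3.70-fold rise (adjusted p = 3.25e-06). TFPI, the inhibitor of tissue factor in clotting, had 7.50, 7.66 and 7.58 in CDT1 siRNA cells, against 6.17, 6.13 and 5.90 in the first set and 5.44, 5.81 and 5.68 in the second, a 3.31-fold rise (adjusted p = 0.000255). LUM, which encodes the matrix proteoglycan lumican, had 8.90, 8.98 and 8.97 in CDT1 siRNA cells, against 7.17, 7.08 and 6.50 in the first set and 7.64, 7.34 and 7.64 in the second, a 3.30-fold rise (adjusted p = 1.41e-05). In these 4 genes every silenced array lay more than a log2 unit above every control array.

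GASK1B rose 3.11-fold, SERPINB7, of the serine protease inhibitor family, 2.94-fold, the locus LOC389834 2.93-fold and C6orf120 2.91-fold. The other 2 increases depended on the control set. ST3GAL6, a sialyltransferase, had 7.32, 7.29 and 7.35 in CDT1 siRNA cells, against 6.73, 6.55 and 6.35 in the first GL2 set and 4.36, 5.59 and 4.44 in the second, so it was 2.52 higher than the second set and 0.77 from the first, where it did not pass. MPPE1, a metallophosphoesterase, had 6.89, 6.83 and 6.58 in CDT1 siRNA cells, against 4.68, 5.83 and 6.49 in the first set and 4.18, 4.26 and 5.39 in the second. Its 1.63 ± 0.49 (limma, adjusted p = 0.026) rested on widely scattered controls, and when any 1 of 6 arrays was left out its adjusted p lay between 0.0548 and 0.0992. Dim genes gave larger nominal folds, such as SLC46A3, a lysosomal transporter, which had 5.80, 6.27 and 6.26 in CDT1 siRNA cells, against 4.77, 2.41 and 2.33 in the first set and 3.75, 0.62 and 2.30 in the second. Its change of 3.41 ± 0.58 (adjusted p = 0.000115) has no reliable size, since its control arrays lay at background.

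**Figure D3:**
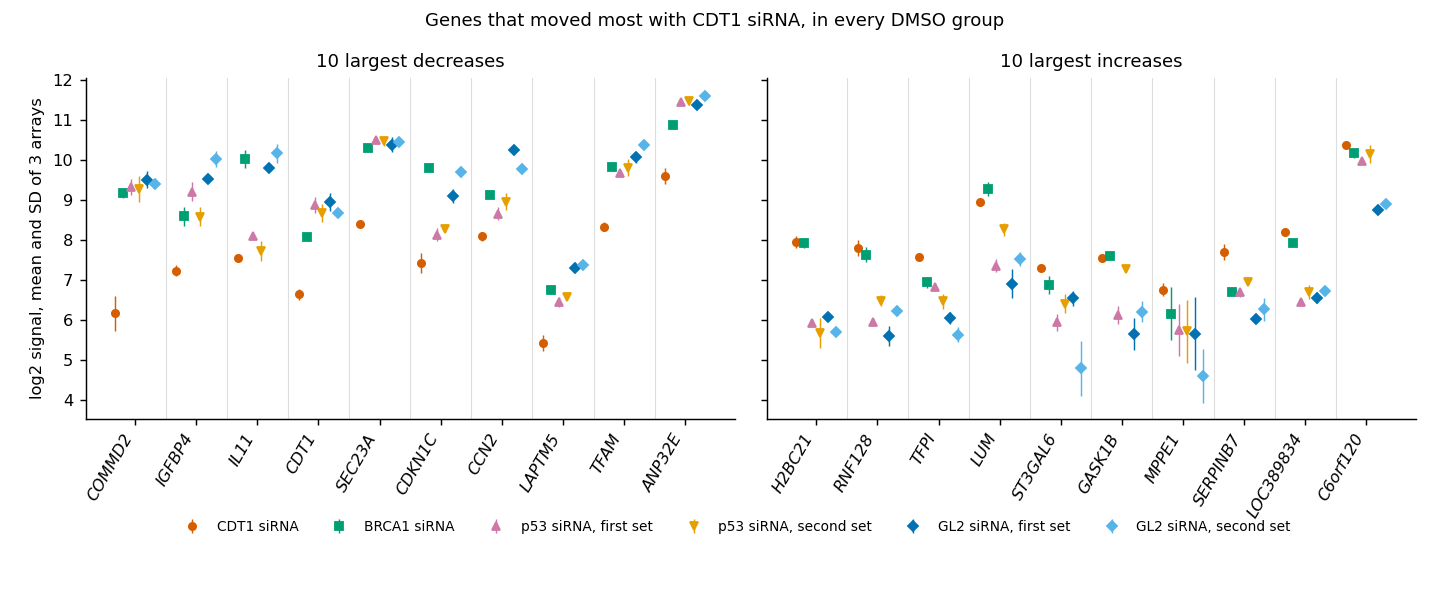
Mean log2 signal (vertical axis) of the 10 largest decreases (left) and 10 largest increases (right) among genes that were not dim, in every DMSO group, with error bars for the SD of 3 arrays; from left to right CDT1, BRCA1, p53 (both sets) and GL2 siRNA (both sets). The decreases run from -3.30 to -1.89 and the increases from 1.54 to 2.06 against GL2 siRNA; levels of different genes are not compared.

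Matrix and growth-factor genes changed in both directions. Of 20 targets of YAP and TEAD, the growth-control factors of the Hippo pathway, 6 fell and 1 rose, with a median of -0.44. The shares over all genes were 3.57% and 2.79%. CCN2, a matricellular protein, had 8.20, 7.98 and 8.12 in CDT1 siRNA cells, against 10.34, 10.23 and 10.21 in the first GL2 set and 9.79, 9.72 and 9.82 in the second, a 3.78-fold fall (-1.92 ± 0.22, limma, adjusted p = 2.51e-07). Its relative CCN1 had 9.46, 9.64 and 9.69 in CDT1 siRNA cells, against 10.58, 10.60 and 10.46 in the first set and 10.66, 10.58 and 10.62 in the second, a 1.98-fold fall (adjusted p = 1.69e-06). ANKRD1, a nuclear ankyrin-repeat protein, changed by -1.25 ± 0.28 (adjusted p = 0.00261), but was dim. AMOTL2, which binds YAP, was at -0.67, CRIM1 at -0.59 and DDAH1 at -0.63. The gene that rose was LATS2, the kinase that inhibits YAP, with 9.09, 9.08 and 9.07 in CDT1 siRNA cells, against 8.44, 8.69 and 8.65 in the first set and 8.27, 8.31 and 8.43 in the second (0.62 ± 0.15, adjusted p = 0.00446). The smaller calls depended on single arrays: AMOTL2 and DDAH1 had adjusted p of 0.0502 and 0.0551 without CDT1 siRNA array 2, DDAH1 0.0644 without array 3, CRIM1 a change of -0.58 without array 2, and LATS2 one of 0.58 without the first set's array 1. Against the first set alone LATS2 (0.49, adjusted p = 0.0711) and CRIM1 (-0.52) did not pass, nor did DDAH1 against the second (-0.54, adjusted p = 0.0678).

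Of 18 genes of TGF-beta signalling 5 fell and 2 rose, with a median of -0.25, where 3.57% of all genes fell and 2.79% rose. TGFB1, the ligand itself, had 7.50, 7.35 and 7.30 in CDT1 siRNA cells, against 8.37, 8.32 and 8.30 in the first GL2 set and 8.80, 8.87 and 8.90 in the second, a change of -1.21 ± 0.28 (limma, adjusted p = 0.0031) that did not pass against the first set alone (-0.95, adjusted p = 0.0616). Its targets TGFBI and THBS1, both secreted matrix proteins, fell as well. THBS1 had 10.49, 10.63 and 10.64 in CDT1 siRNA cells, against 11.60, 11.70 and 11.81 in the first set and 12.09, 11.96 and 12.01 in the second (-1.28 ± 0.14, adjusted p = 1.26e-07), with all 5 bright probe sets lower, and TGFBI was at -0.84 ± 0.16 (adjusted p = 0.000461). SMAD6, an inhibitory SMAD, was at -0.61 (adjusted p = 0.00427) and missed the fold with -0.58 without CDT1 siRNA array 2 or the second set's array 2, and was at -0.43 against the second set alone (adjusted p = 0.102). The fifth gene that fell was CCN2, which the 2 lists share. The genes that rose were BAMBI, a decoy receptor, at 0.67 ± 0.12 (adjusted p = 0.000278), and ID2, an inhibitor of basic helix-loop-helix factors. ID2 had 8.45, 8.38 and 8.49 in CDT1 siRNA cells, against 7.29, 7.12 and 7.13 in the first set and 7.24, 7.41 and 7.38 in the second, a 2.26-fold rise (adjusted p = 5.24e-06).

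Among 35 genes of the extracellular matrix and its remodelling 4 fell and 2 rose, where 3.57% of all genes fell and 2.79% rose. COL5A1, a fibrillar collagen chain, had 4.62, 4.28 and 4.08 in CDT1 siRNA cells, against 7.41, 6.85 and 7.33 in the first GL2 set and 6.95, 6.90 and 6.74 in the second, a change of -2.70 ± 0.24 (limma, adjusted p = 4.27e-09) that ended in the dim range. COL6A3, a chain of collagen VI, had 5.32, 5.57 and 5.00 in CDT1 siRNA cells, against 7.08, 6.96 and 7.12 in the first set and 6.89, 7.0 and 6.93 in the second (-1.70 ± 0.27, adjusted p = 5.63e-05). COL4A2, a basement membrane collagen, had 9.62, 9.67 and 9.58 in CDT1 siRNA cells, against 10.40, 10.37 and 10.53 in the first set and 10.38, 10.42 and 10.23 in the second (-0.77 ± 0.10, adjusted p = 4.43e-06). The fourth gene that fell was THBS1, and all 3 collagens also fell against each set alone. The laminin chain LAMA4 and the stromelysin MMP3 rose, at 0.67 each, with adjusted p of 0.017 and 0.0049. LAMA4 missed the threshold without CDT1 siRNA array 1 or 2 (adjusted p = 0.0807 and 0.0727), and MMP3 was at 0.58 without the first set's array 1. Neither passed against the first set alone, where LAMA4 was at 0.56 (adjusted p = 0.119) and MMP3 at 0.44 (adjusted p = 0.161).

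Of 28 genes of the ATF4 and unfolded protein response, which adjusts amino acid supply and protein folding under stress, 5 fell and 1 rose. Their median was -0.29, and over all genes 3.57% fell and 2.79% rose. ATF4, the transcription factor of the response, had 10.43, 10.26 and 10.41 in CDT1 siRNA cells, against 10.89, 10.94 and 11.07 in the first GL2 set and 11.25, 11.25 and 11.23 in the second (-0.74 ± 0.11, limma, adjusted p = 2.32e-05). Its target CHAC1, which degrades glutathione, had 4.24, 4.30 and 4.64 in CDT1 siRNA cells, against 5.07, 5.92 and 5.57 in the first set and 6.60, 6.73 and 6.92 in the second, a change of -1.74 ± 0.28 (adjusted p = 6.25e-05) in the dim range. TRIB3, a pseudokinase, had 8.91, 8.84 and 8.82 in CDT1 siRNA cells, against 9.44, 9.57 and 9.45 in the first set and 9.72, 9.78 and 9.89 in the second (-0.78 ± 0.19, adjusted p = 0.00583), and did not pass against the first set alone (-0.63, adjusted p = 0.0776). In ATF4, CHAC1 and TRIB3 the silenced arrays lay under both sets and the first set under the second. SLC7A5, a transporter of large amino acids, had 10.35, 10.32 and 10.44 in CDT1 siRNA cells, against 11.08, 10.98 and 11.26 in the first set and 11.10, 11.27 and 11.26 in the second (-0.79 ± 0.10, adjusted p = 2.98e-06). PHGDH, the first enzyme of serine synthesis, was at -0.60 (adjusted p = 0.00945), and missed the thresholds without CDT1 siRNA array 1 (adjusted p = 0.0823) or the first set's array 2 (-0.57). The gene that rose, EDEM1, which sends misfolded glycoproteins to degradation, was at 0.72 (adjusted p = 0.0243) and lost its call when any 1 CDT1 siRNA array was left out (0.0753, 0.122 and 0.0555 without arrays 1, 2 and 3) or without the first set's array 2 (0.0722), and against the second set alone (0.56, adjusted p = 0.162).

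Of 22 sterol and lipid synthesis genes 2 fell, where 3.57% of all genes did. FADS2, a fatty acid desaturase, had 5.19, 5.58 and 5.64 in CDT1 siRNA cells, against 6.69, 6.34 and 6.56 in the first GL2 set and 6.34, 6.89 and 6.73 in the second (-1.12 ± 0.22, limma, adjusted p = 0.000629), and ELOVL6, a fatty acid elongase, was at -0.70 ± 0.17 (adjusted p = 0.0049). Of 25 hypoxia targets 3 rose and 0 fell, with a median of 0.03, where 2.79% of all genes rose. ANKRD37, an ankyrin-repeat target of HIF1, had 9.64, 9.97 and 9.78 in CDT1 siRNA cells, against 8.46, 8.51 and 8.57 in the first set and 8.38, 8.38 and 8.39 in the second (1.35 ± 0.11, adjusted p = 2.91e-10). ALDOC, a glycolytic aldolase, had 9.72, 9.91 and 9.75 in CDT1 siRNA cells, against 8.92, 8.82 and 8.87 in the first set and 8.97, 9.14 and 9.21 in the second (0.81 ± 0.15, adjusted p = 0.000271). P4HA2, a collagen prolyl hydroxylase, had 9.27, 9.37 and 9.33 in CDT1 siRNA cells, against 8.81, 8.76 and 8.80 in the first set and 8.41, 8.63 and 8.57 in the second (0.66 ± 0.10, adjusted p = 1.56e-05). In these 3 genes every silenced array lay above every control array, but P4HA2 was under the fold against the first set alone (0.53).

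Interferon and inflammatory genes gave small, mixed counts, where 2.79% of all genes rose and 3.57% fell. Of 39 interferon-stimulated genes 2 rose and 1 fell. IFI44 had 7.29, 7.52 and 7.48 in CDT1 siRNA cells, against 8.52, 8.49 and 8.59 in the first GL2 set and 8.42, 8.55 and 8.43 in the second (-1.07 ± 0.12, limma, adjusted p = 1.59e-07). ISG15, a ubiquitin-like modifier, was at 0.68 ± 0.15 (adjusted p = 0.00207) and IFI35 at 0.69 ± 0.16 (adjusted p = 0.00252), so the 3 genes did not move one way. ISG15 did not pass against the second set alone (0.51, adjusted p = 0.0553). Of 23 NF-kB targets 2 rose and 2 fell: the cytokine IL1A was dim at 1.28, SOD2, mitochondrial superoxide dismutase, was at 1.16, and TNFAIP2 was at -0.62. The other gene that fell was IL11, given with the largest decreases. SOD2 followed the control set, with 7.85, 7.59 and 7.62 in CDT1 siRNA cells, against 7.35, 7.33 and 7.23 in the first set and 5.86, 5.57 and 5.80 in the second, and did not pass against the first (0.38). TNFAIP2 missed the fold without the first set's array 1 (-0.56) or the second set's array 3 (-0.57), and did not pass against the second set alone (-0.54, adjusted p = 0.0626).

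For the lists that follow, 3.57% of all genes fell and 2.79% rose. MAPK signalling, which mutant BRAF drives in A375 cells, was read from 20 output genes, of which 2 fell and 0 rose. They were FOSL1, a component of AP-1, at -0.66 ± 0.13 (limma, adjusted p = 0.000596), and the receptor EPHA2 at -0.60 ± 0.12 (adjusted p = 0.000726). EPHA2 fell under the fold, at -0.58, without the first set's array 3 or the second set's array 2 or 3, and at -0.57 without CDT1 siRNA array 2. Neither passed against the first set alone, where FOSL1 was at -0.46 (adjusted p = 0.0505) and EPHA2 at -0.54. Of 19 immediate early and AP-1 genes FOSL1 alone passed. None of the NRF2 targets, BCL2 family genes or epithelial markers passed by limma in either direction. Of 19 lysosome genes 1 rose, CTSA, a lysosomal carboxypeptidase, at 0.66 (adjusted p = 0.0229). It lost its call when any 1 CDT1 siRNA array was left out (0.0759, 0.100 and 0.0604) and against the second set alone (0.0753). Without the doubted libraries CTSA was at 0.66 ± 0.10 (limma, adjusted p = 6.88e-06). Of 19 ribosome synthesis genes 1 fell, the nucleolar protein LYAR, at -0.63, which was at -0.58 without CDT1 siRNA array 2 and at -0.53 against the first set alone (adjusted p = 0.0535). Of 25 replication-type histone genes H2BC21 rose and H2BC12 fell. H2BC12 had 10.07, 10.13 and 9.97 in CDT1 siRNA cells, against 10.61, 10.64 and 10.62 in the first GL2 set and 10.77, 10.78 and 10.93 in the second (-0.67 ± 0.11, adjusted p = 6.7e-05), and was under the fold against the first set alone (-0.56). Histone genes are near-identical copies, so their probe sets may share signal.

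**Figure D4:**
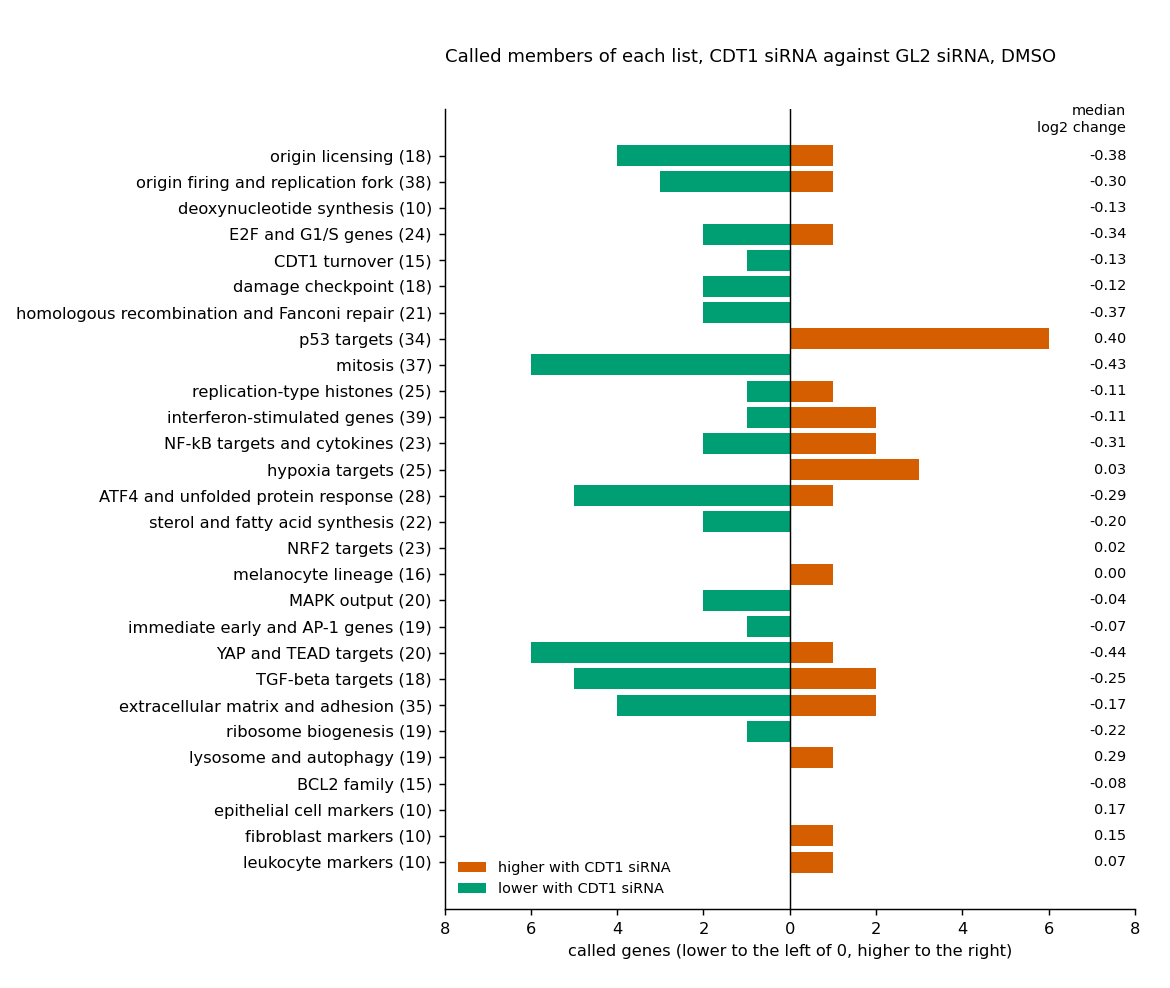
Number of genes on each list that rose (bars to the right of 0) or fell (to the left) with CDT1 siRNA against GL2 siRNA under DMSO, with the number measured in brackets and the median log2 change of the list at the right edge. The bars of p53 targets (6) and mitosis (6) point in opposite directions, with medians of 0.40 and -0.43.

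The labelled cell type was checked with melanocyte and other markers. S100B, a melanocytic calcium-binding protein, rose as the 1 gene of 16 on the melanocyte list, with 9.43, 9.12 and 9.28 in CDT1 siRNA cells, against 8.08, 8.12 and 8.03 in the first GL2 set and 8.80, 8.38 and 8.57 in the second (0.95 ± 0.20, limma, adjusted p = 0.00156). It did not pass against the second set alone (0.70, adjusted p = 0.0506). The pigment genes MLANA, PMEL and TYRP1 and the markers KIT and GPR143 were under a signal of 31.9 in every group, and TYR in CDT1 siRNA cells alone. The other measured genes of the list were not under it. Without detection calls, a signal under 31.9 does not show that a marker was absent. The summed signal of the list was 4328.5 to 4965.7 in CDT1 siRNA cells, 4070.6 to 4682.2 in the first set and 4658.2 to 4929.3 in the second. The fibroblast list summed to 880.4 to 923.7 in CDT1 siRNA cells, 509.2 to 603.9 in the first set and 465.0 to 576.0 in the second, with LUM its only gene that rose and COL1A2, COL3A1, FAP and PDGFRA under 31.9 throughout. PDGFRB and POSTN were also under it in CDT1 siRNA cells, and POSTN and THY1 in the second set. The other fibroblast genes were not under it in any group. The leukocyte list summed to 3286.8 to 3675.9 in CDT1 siRNA cells, 1968.7 to 2180.6 in the first set and 2280.3 to 2488.4 in the second, with HLA-DRA its 1 gene that rose. HLA-DRA, a class II antigen-presenting chain, was at 0.64 (adjusted p = 0.0439), and lost its call when any 1 of 8 arrays was left out (0.058 to 0.168) and against the second set alone (0.223). PTPRC, CD14, CD3D, CD3E, CD4 and CD8A, which define leukocytes, were under 31.9 in all groups. The other measured genes of that list were not under it, apart from MS4A1 in the second set. The epithelial list summed to 2427.0 to 2638.4 in CDT1 siRNA cells, 2999.7 to 3488.2 in the first set and 2699.8 to 2862.5 in the second. CDH1, EPCAM, ESRP1, KRT19 and KRT5 were under 31.9 in all groups, CLDN4 in both GL2 sets and ELF3 in the second. The other epithelial genes were not under it in any group.

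A crossing comparison was with cells given BRCA1 siRNA under the same vehicle. It shares the CDT1 siRNA arrays with the comparison against GL2, so the values are given side by side. CDT1 averaged 8.08 in BRCA1 siRNA cells, and CDT1 siRNA cells lay 1.43 ± 0.29 under them (limma, adjusted p = 0.0015). Against BRCA1 siRNA 432 genes were higher (2.18%) and 695 lower (3.51%) in CDT1 siRNA cells, 5.7% of those tested. Of the 6 p53 targets that rose, CDKN1A averaged 10.99 in BRCA1 siRNA cells, SESN1 8.64, GDF15 8.03, TNFRSF10B 10.08, TP53I3 9.74 and TP53INP1 8.10, and TP53INP1 was lower in CDT1 siRNA cells by -1.57 (adjusted p = 3.54e-06). Of the 37 mitotic genes 2 were higher and 0 lower in CDT1 siRNA cells than in BRCA1 siRNA cells, with a median of 0.44, against 0.02 over all genes. The 18 licensing genes had a median of 0.20 in that comparison, with 13 of the differences positive. BRCA1 siRNA cells themselves differed from both GL2 sets by a median of -0.62 over the licensing genes, 14 of them lower. Over the mitotic genes this median was -0.82, with 37 lower, and over the p53 targets it was 0.59, with 5 lower. None of the 10 largest increases passed the test against BRCA1 siRNA, with differences between -0.33 for LUM and 1.01 for SERPINB7 (limma, adjusted p = 0.616 and 0.0512). Without the doubted libraries, which changes the shared standard error, TFPI (0.63, adjusted p = 0.000389) and SERPINB7 (1.01, adjusted p = 0.0296) did pass. H2BC21, RNF128, GASK1B and C6orf120, chosen after their values were seen, averaged 7.94, 7.64, 7.62 and 10.18 in BRCA1 siRNA cells, with differences of 0.01, 0.17, -0.04 and 0.20. All 10 of the largest decreases passed it: COMMD2 averaged 9.19, IL11 10.03, SEC23A 10.32, TFAM 9.84 and ANP32E 10.88 in BRCA1 siRNA cells, for example, and each was lower in CDT1 siRNA cells, by -3.02, -2.46, -1.91, -1.50 and -1.28 (limma, adjusted p of 4.26e-07 or less). These 10 genes had been chosen for low values on the same CDT1 siRNA arrays. The BRCA1 gene itself had 8.24, 8.13 and 8.39 in CDT1 siRNA cells, against 8.89, 8.95 and 8.88 in the first GL2 set and 8.70, 8.52 and 8.66 in the second. The difference, -0.51 ± 0.51, had an adjusted p of 0.616, and of 6.75e-04 at -0.51 ± 0.11 when the doubted libraries were left out, still under 1.5-fold.

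CDT1 siRNA was also tested under 650 nM MLN4924, on arrays that share none with the DMSO comparison. The libraries that went against their labels lie there. BRCA1 had 7.95, 8.24 and 4.70 in GL2 siRNA cells and 4.93, 5.28 and 8.18 in BRCA1 siRNA cells under MLN4924, so the third library of each group stood with the other group. CDT1 had 6.27, 6.08 and 6.15 in the libraries labelled CDT1 siRNA, against 8.86, 8.81 and 7.27 in those labelled GL2 siRNA. Values under MLN4924 come from all arrays unless it is said that the doubted libraries were left out. With all arrays CDT1 siRNA against GL2 siRNA under MLN4924 gave 386 genes higher (1.95%) and 533 lower (2.7%), 4.65% of those tested. The split was 704 to 353 at the deposited scaling and 456 to 409 after quantile normalization, higher genes first. A fit of these groups alone gave 8 genes. The fit of all groups without the doubted libraries gave 667 higher and 897 lower. CDT1 itself changed by -2.15 ± 0.29 under MLN4924 (limma, adjusted p = 1.08e-05) with all arrays, and by -2.67 ± 0.15 without the doubted libraries.

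Of the 551 genes that rose under DMSO, 136 (24.7%) also rose under MLN4924, which is 35.2% of the 386. Of the 706 that fell, 216 (30.6%) also fell, which is 40.5% of the 533. Over all genes 1.95% rose and 2.7% fell under MLN4924. Without the doubted libraries these counts were 199 and 297. The genes with large decreases were among those shared: COMMD2 averaged 6.91 in CDT1 siRNA cells under MLN4924, against 10.26 in the libraries labelled GL2 siRNA, a change of -3.35 ± 0.33, and of -3.59 ± 0.32 without the doubted libraries. SEC23A averaged 8.64 in CDT1 siRNA cells under MLN4924, against 10.35 in the libraries labelled GL2 siRNA, and TFAM averaged 8.54, against 10.41. Their changes were -1.70 and -1.87, and -1.71 and -1.98 without the doubted libraries. Of the 28 genes of ATF4 and the unfolded protein response, 1 rose and 12 fell under MLN4924, where 1.95% and 2.7% of all genes did. Without the doubted libraries 0 rose and 15 fell, where 667 and 897 of all 19775 genes did. NBN was lower by -0.82 ± 0.16 (limma, adjusted p = 0.000914) under MLN4924, and by -0.91 ± 0.14 without the doubted libraries, against -0.80 under DMSO.

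The effect of CDT1 siRNA on some p53 targets differed between the treatments. CDKN1A averaged 11.42 in CDT1 siRNA cells under MLN4924, against 11.70 in the libraries labelled GL2 siRNA, and both means lay above every DMSO array of the same siRNA. The effect of CDT1 siRNA on CDKN1A under MLN4924 less that under DMSO was -1.70 ± 0.22 (limma, adjusted p = 0.000118), and -1.70 without the doubted libraries. GDF15 averaged 11.65 in CDT1 siRNA cells under MLN4924, against 12.41 in the libraries labelled GL2 siRNA, a difference in effect of -1.78 ± 0.33 (adjusted p = 0.0033), and of -1.87 without the doubted libraries. Of the 34 p53 targets the difference in effect was past the thresholds in 10, all negative, with a median of -0.64, and in 15 without the doubted libraries. Over all genes this test gave 245 genes, 1.24% of those tested, 104 higher (0.526%) and 141 lower (0.713%). Without median centring it gave 247 genes higher and 133 lower. Under MLN4924 1.95% of all genes were higher and 2.7% lower with all arrays. Mitotic genes had a median of 0.11 under MLN4924, 3 of 37 higher and 0 lower, which became 1 higher and 4 lower with a median of -0.15 without the doubted libraries. The direction of the mitotic genes under MLN4924 thus rests on these libraries. Hypoxia targets were past the thresholds in 6 of 25 for the difference in effect, all negative, and in 7 without the doubted libraries. ALDOC averaged 10.00 in CDT1 siRNA cells under MLN4924, against 10.86 in the libraries labelled GL2 siRNA, a change of -0.86, and of -0.95 without the doubted libraries.

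**Figure D5:**
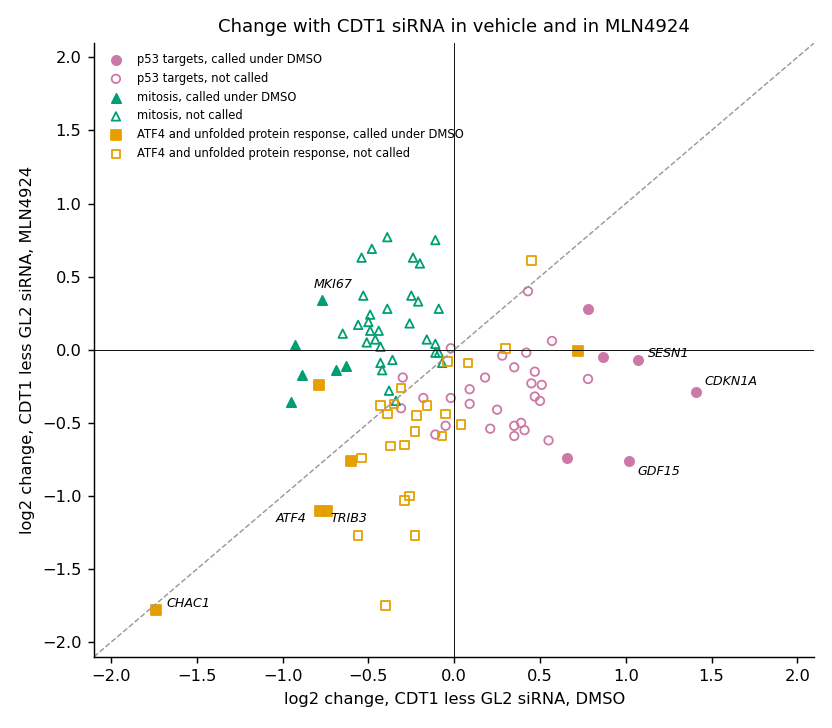
Log2 change, CDT1 siRNA over GL2 siRNA, under MLN4924 (vertical axis, all arrays) and under DMSO (horizontal axis), for p53 targets, mitosis genes and genes of ATF4 and the unfolded protein response; filled points rose or fell under DMSO, and the dashed line marks equal changes. CDKN1A lies at 1.41 under DMSO and -0.29 under MLN4924, while ATF4, TRIB3 and CHAC1 are negative on both axes.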

How the data were processed

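RNA of A375 cells was measured on 42 Affymetrix arrays, in 14 groups of 3 per the labels. The deposited values are signal intensity on a linear scale for 54675 probe sets, which the authors made with Expression Console of Affymetrix (submitters' processing notes, without a version). No detection calls, scan dates or genome build are given in the sources used here, so dim probe sets were defined by signal. The 147 values of 0 were raised to 0.1 and log2 was taken. Each of 19775 genes was represented by its brightest probe set with 1 symbol, named from GEO's platform annotation, and the arrays were shifted to a common median gene, whose log2 signal was 6.062 to 6.109 in CDT1 siRNA arrays, 6.081 to 6.098 in the first GL2 set and 5.986 to 6.025 in the second.

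Tests used limma 3.58.1 in R 4.3.3 (lmFit, contrasts.fit, eBayes) on 1 fit of all groups with 28 residual degrees of freedom and Benjamini-Hochberg adjustment. Figures were drawn with matplotlib 3.10.9 and tables made with pandas 2.3.3 and numpy 2.4.6 in Python 3.11.15. On simulated data for CDT1 siRNA against GL2 siRNA over 19775 genes, the fit recovered 26.9% of 1.5-fold, 47.8% of 2-fold and 75.8% of 4-fold changes, with 3 false calls. Changes were planted in 67, 67 and 66 genes, far fewer than the 1257 called in the data. The adjusted p depends on how many genes change, so these shares need not hold for the data. In the simulation the GL2 sets had the same true level for every gene, whereas 188 genes were called between the real sets. The 3 false calls therefore give no error rate for the data. A true 1.5-fold change can also be measured under the fold required. Correlations of same-numbered arrays ran from -0.10 to 0.12, which shows no strong shared effect of the number. With 3 arrays a group they cannot settle whether samples were paired. Named genes were the called members of the lists, fixed licensing and p53 genes, and the largest changes not dim, plus a few dim genes. The members, the 28 lists and the alternatives (scaling, pseudocount, probe sets, array weights, control set, arrays left out) were chosen with earlier results of these data known. TMEFF2 was chosen after its values were seen.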

Additional observations from a re-analysis of the deposited data

Results flagged for a closer look

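Single control arrays stood apart from the other 5 GL2 arrays under DMSO in 4 of the named genes, by Dixon's test at the 95% level, which chance passes in about 1 of 20 groups. MCM3 was at 9.33 in the first set's array 3, against 9.68 to 9.78 in the others, and MCM6 at 10.80 in the second set's array 3, against 10.62 to 10.68. EDEM1 was at 7.33 in the first set's array 2, against 7.99 to 8.34, and SERPINB7 at 6.61 in the second set's array 1, against 5.99 to 6.19.

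The effect of CDT1 siRNA differed between MLN4924 and DMSO by the test of the difference itself (limma, adjusted p under 0.05) in 17 named genes, each value being the log2 effect under MLN4924 less that under DMSO. Among p53 targets it was -1.70 for CDKN1A, -1.78 for GDF15, -1.14 for SESN1, -0.92 for TNFRSF10B and -1.40 for TP53INP1. Among hypoxia targets it was -1.18 for ANKRD37, -1.67 for ALDOC and -1.06 for P4HA2. It was also negative for ID2, at -1.25, and for RNF128, at -1.54. It was positive for the proliferation marker MKI67 at 1.12, CDKN1C at 1.46, THBS1 at 0.97, COL4A2 at 0.68, IGFBP4 at 1.51 and IFI44 at 0.69, and for the dim transcript LINC02941 at 3.36. Without the doubted libraries all 17 differences were still past the thresholds, with MKI67 at 0.81, RNF128 at -1.08, CDKN1A at -1.70 and GDF15 at -1.87.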

How the results depend on the processing

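CDT1 siRNA against GL2 siRNA under DMSO kept a count within 1.5 times of 1257 under every alternative but the 2-fold threshold, which left 400, and leaving out 1 array gave 959 to 1274. At 2-fold the other comparisons gave 98 genes for the second against the first GL2 set, 398 against BRCA1 siRNA, 281 under MLN4924 and 117 for the difference between MLN4924 and DMSO. In the same order, array weights gave 641 for the GL2 sets, 1642 under MLN4924 and 970 for the difference, leaving out the doubted libraries 364, 1564 and 671, and fits of only the groups compared 19, 8 and 384. The mean of all probe sets gave 727 against BRCA1 siRNA and 159 for the difference, which was 380 at the deposited scaling. Leaving out 1 array gave 77 to 188 for the GL2 sets, 863 to 971 against BRCA1 siRNA, 719 to 1252 under MLN4924 and 128 to 246 for the difference. The difference moved most without CDT1 siRNA array 1 (153) or 2 (128) under DMSO or array 1 (145) or 3 (158) under MLN4924, and the GL2 sets without array 1, 2 or 3 of the first set (109, 103 and 83) or 2 or 3 of the second (94 and 77). With the replicate block the counts were 1241, 170, 1113, 895 and 227. Whether the replicate numbers paired samples is not settled, and the block changed no call of the 105 genes. MDM2 turned to 0.02 at the deposited scaling and after quantile normalization, to 0.14 with the mean of its probe sets and to 0.14 against the first GL2 set, and TP53INP1 to -0.48 with the mean of its probe sets; the causes were not tested. Of the 105 genes, 28 lost their call against the first set alone, 16 against the second and 29 with the mean of probe sets. Those fits, and the fits of these genes without 1 array, included the doubted libraries. Without the doubted libraries, with both GL2 sets, the limma adjusted p was 7.43e-06 for TOPBP1, 2.63e-05 for LAMA4 and 1.09e-06 for DDAH1. It was 0.0011 for HLA-DRA and 0.0216 for MPPE1. Licensing genes called numbered 2 without CDT1 siRNA array 1, and 3 without array 2. With 3 arrays a group, dim genes and changes near 1.5-fold are the least certain.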

Other observations

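Some genes separated the control sets more than they separated CDT1 siRNA from either, and were chosen after their values were seen. FAM76B had 10.69, 10.44 and 10.55 in CDT1 siRNA cells, against 10.83, 10.80 and 10.64 in the first GL2 set and 7.19, 5.56 and 6.01 in the second. SRR, serine racemase, had 8.11, 8.02 and 8.41 in CDT1 siRNA cells, against 8.55, 8.54 and 8.34 in the first set and 5.94, 5.28 and 6.25 in the second. EME1, a subunit of a structure-specific nuclease, had 10.30, 9.79 and 9.83 in CDT1 siRNA cells, against 10.48, 10.28 and 9.98 in the first set and 8.04, 8.08 and 8.11 in the second. ZNF580 ran the other way, with 8.47, 8.30 and 8.50 in CDT1 siRNA cells, against 7.39, 7.48 and 7.24 in the first set and 8.94, 8.48 and 8.99 in the second. In FAM76B, 1 of 4 bright probe sets was higher in CDT1 siRNA cells than in both sets pooled, and the others were not.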
